A study of Homo sapiens with 12 samples.

Results

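Nuclear receptors are transcription factors that bind DNA through a zinc finger domain, and many of them are switched by small lipophilic ligands such as steroids, retinoids, fatty acids, bile acids and heme. Coactivators and corepressors are the proteins they recruit: coactivators bring histone acetyltransferases and the transcription machinery to a promoter, and corepressors bring histone deacetylases. In hepatocytes these factors control lipid, glucose, bile acid and drug metabolism and couple them to the circadian clock. The 43 genes described here were taken from a list of names, namely 36 nuclear receptors and 7 coregulators, by name and not by a measured value, although the list was drawn up with earlier results of these data known. All 43 were found among the 27249 Ensembl genes of the deposited tables, which also list 71462 NONCODE transcripts of non-coding RNA.

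Huh7 and HepG2 are established human liver cancer cell lines, named hepatocellular carcinoma cells in the labels. RNA of sorafenib-resistant and parental (sorafenib-sensitive) cells of each line, all labelled wild type, was sequenced in 12 samples, 3 in each of the 4 groups. Sorafenib is a multikinase inhibitor. Resistant cells had been exposed to a first dose of 10 μmol for a day, and survivors went through further rounds at rising doses over 8 months. The labels do not say whether drug was present at harvest, and 1 resistant population per line stands for resistance, so a feature of that population cannot be told apart from resistance itself. Nothing says that the 3 samples of a group came from separate cultures, so the p-values measure the spread between these samples, which may be technical.

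The values are FPKM, fragments scaled to exon length and to the depth of the library. Between 12290205 and 19286030 reads stood behind each sample, calculated back from the values. HepG2 parental samples were the shallowest (12290205 to 15728853 reads) and Huh7 resistant samples the deepest (18972478 to 19286030). All 8 hepatocyte markers checked, such as ALB and APOA1, were at 1 FPKM or more in every sample. Their summed level was 7798 to 9674 FPKM in parental and 5123 to 5271 FPKM in resistant Huh7, against 4878 to 6023 and 3816 to 4089 FPKM in HepG2. Single markers went both ways. The AFP median was 5066 FPKM in parental and 2343 in resistant Huh7, and 1413 and 347 FPKM in HepG2. The APOA1 median was 78.2 and 180 FPKM in Huh7, and 115 and 263 in HepG2. By medians, ALB, APOB and TTR were also lower in resistant Huh7, and SERPINA1, TF and FGB higher. In HepG2 ALB, TF and FGB were lower, and APOB, TTR and SERPINA1 higher. Leukocyte markers summed to 1.23 to 7.56 FPKM, endothelial markers to 1.17 to 3.66 FPKM and fibroblast and stellate markers to 3.45 to 26.2 FPKM.

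The upstream sequences of 4 members are shown because these genes moved in opposite directions in Huh7 (NR6A1 and RARA upward, NR1D2 and NRIP1 downward) and because their RefSeq start lies within 50 bases of the GENCODE start, which holds for 17 of the 38 members that matched the RefSeq promoter table (GRCh38.p14). Each is the 250 bases before the RefSeq start, 5′ to 3′ on the strand of the gene. Capitals mark a nuclear receptor half-site (AGGTCA, which reads TGACCT on the other strand) or a cAMP response element (TGACGTCA, a palindrome).
NR6A1, chr9:124771312-124771561, minus strand: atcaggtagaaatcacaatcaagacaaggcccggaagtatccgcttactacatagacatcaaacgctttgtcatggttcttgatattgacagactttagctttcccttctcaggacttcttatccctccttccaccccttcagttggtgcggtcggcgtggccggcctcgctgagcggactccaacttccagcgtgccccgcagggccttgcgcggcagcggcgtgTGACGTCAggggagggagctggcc
RARA, chr17:40308930-40309179, plus strand: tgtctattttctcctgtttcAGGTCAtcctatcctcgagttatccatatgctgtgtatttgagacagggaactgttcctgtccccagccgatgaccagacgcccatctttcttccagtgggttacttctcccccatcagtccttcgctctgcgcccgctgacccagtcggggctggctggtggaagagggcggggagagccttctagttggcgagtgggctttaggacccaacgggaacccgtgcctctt
NR1D2, chr3:23945036-23945285, plus strand: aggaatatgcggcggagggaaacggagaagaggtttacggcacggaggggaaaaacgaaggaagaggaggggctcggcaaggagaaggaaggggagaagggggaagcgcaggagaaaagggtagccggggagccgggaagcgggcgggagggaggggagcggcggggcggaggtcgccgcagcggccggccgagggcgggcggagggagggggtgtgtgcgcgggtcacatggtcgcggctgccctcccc
NRIP1, chr21:15065937-15066186, minus strand: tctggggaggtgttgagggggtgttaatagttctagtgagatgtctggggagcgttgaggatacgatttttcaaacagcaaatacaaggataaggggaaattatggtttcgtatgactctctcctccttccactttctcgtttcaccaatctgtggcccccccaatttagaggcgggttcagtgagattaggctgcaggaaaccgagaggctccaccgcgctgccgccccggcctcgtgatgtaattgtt

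The cAMP response element of NR6A1 begins 24 bases before the start, and the half-site of RARA 230 bases before it. Among all 27305 promoters of the table, the same 250 bases hold a cAMP response element on either strand in 1.77% and a half-site in 12.1%. Over the 38 members, 1 (NR6A1) has the former and 4 (RARA, PPARG, NR1H3 and RXRG) have the latter. An E-box (CACGTG, a palindrome), the site of the clock factors CLOCK and BMAL1, is found in 6.49% of all promoters and in 3 members (NR2C1, NR2F2 and PPARGC1A). The RefSeq start lies 85 bases from the GENCODE start for NR2C1, but 6627 for NR2F2 and 568816 for PPARGC1A. The upstream GC content is 56.8% for NR6A1, 56.4% for RARA, 70.4% for NR1D2 and 50.8% for NRIP1.

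Many members differed in level between the parental lines, at shares near those of all genes or somewhat above them. These are the levels from which each member could move. A mean of at least 1 FPKM was reached by 32 of the 43 members in parental Huh7 and by 31 in parental HepG2, and 28 reached it in all 4 groups. ESR1, ESR2, ESRRG, PGR, RORB, RXRG and NR4A3 stayed under 1 FPKM in all 12 samples. RXRG, the retinoid X receptor of muscle and brain, had 0 to 2 reads in every sample, and RORB 0 to 5. At an adjusted p under 0.05 and a log2 fold change beyond 1 on the log2(FPKM + 1) scale, here called differentially expressed, 14 of the 34 members tested differed between parental Huh7 and parental HepG2 (7 higher and 7 lower in Huh7). The background was 31.9% of 12796 genes, 19.4% higher and 12.5% lower. Without a minimum fold change 13 were higher and 11 lower, against 39.0% and 26.2% of all genes, and samples did not overlap for 27 of the 34, against 70.0%. With a pseudocount of 0.1 the count of 14 stood beside 40.3% of all genes.

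Among the members higher in parental Huh7, RARB (a retinoic acid receptor) had a mean of 9.06 FPKM ± 0.452 (SD, n = 3) against 0.275 ± 0.0811 in HepG2, and NR4A2 (an orphan receptor of the immediate early NR4A group) 6.24 ± 0.465 against 0.121 ± 0.0605. The COUP-TF genes NR2F1 and NR2F2 stood higher in Huh7: NR2F2 had 19.5 ± 0.837 FPKM against 2.89 ± 0.678, and NR2F1 13.5 ± 1.61 against 3.26 ± 1.69. NCOA2, THRB and PPARGC1B were the other members higher in Huh7, with log2 fold changes of 1.99 (SE 0.18), 1.49 (SE 0.16) and 1.13 (SE 0.12). Lower in Huh7 were PPARGC1A, with 0.829 ± 0.101 FPKM against 11.7 ± 3.14 in HepG2, and NR1D1, with 4.34 ± 0.775 against 30.5 ± 1.58. ESRRA, the receptor that works most closely with PPARGC1A, was lower by 1.41 on the log2 scale (SE 0.18, log2 fold change -1.41), NR1I2 by 1.38 (-1.38, SE 0.16), THRA by 1.19 (-1.19, SE 0.16), RARA by 1.12 (-1.12, SE 0.16) and NCOA3 by 1.02 (-1.02, SE 0.17). RARA was not differentially expressed without Huh7 parental replicate 3 (-0.99) or with the trend on GC content (below) removed (-0.97), nor NCOA3 without HepG2 parental replicate 3 (-0.85). Of the 2 PGC-1 genes, PPARGC1A thus had the higher values in HepG2 and PPARGC1B in Huh7. RARB, NR4A2, PPARGC1A, PPARGC1B and NR1I2 were under 1 FPKM in every sample of the lower line. They passed the filter (1 FPKM or more in at least 3 samples) only through the line where they were higher. For these members only that direction could be tested.

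**Figure D1:**
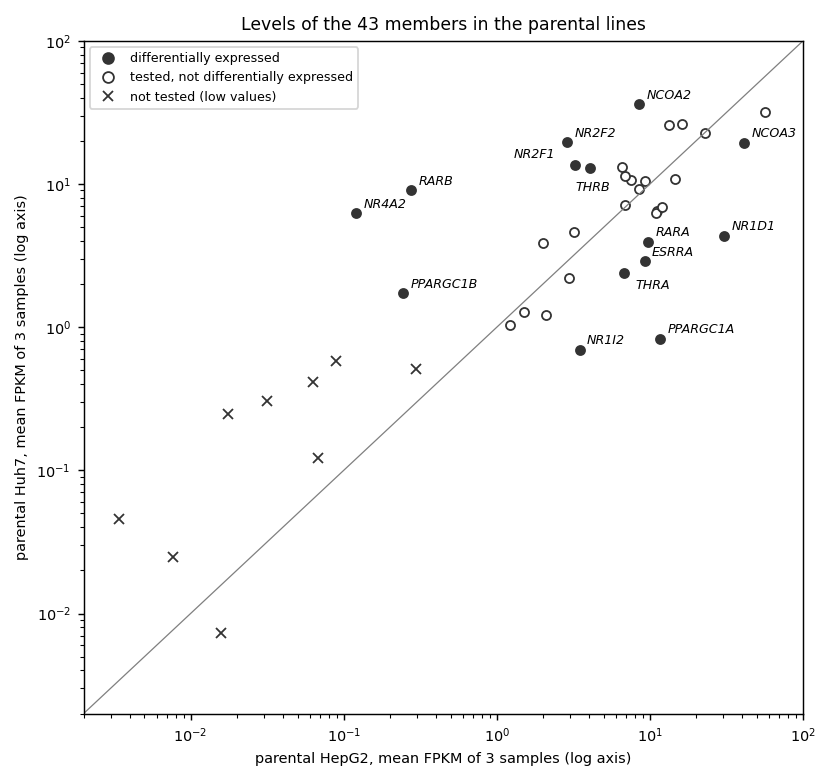
Mean FPKM of each of the 43 members in parental HepG2 (x axis, log scale) and parental Huh7 (y axis, log scale), 3 samples each, with a line where both are equal. Filled points are the 14 differentially expressed members, open points the other tested members and crosses the 9 that were too low to test; RARB, NR4A2 and PPARGC1B lie far above the line, PPARGC1A, NR1D1 and NR1I2 far below it.

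With resistance, 5 of the 34 members tested in Huh7 were differentially expressed, 2 higher (NR1D1 and NR1I2) and 3 lower (NR1D2, NR2C1 and NRIP1). Over all 12554 genes tested in this line the share was 22.6%, with 8.59% higher and 14.0% lower, so the members' share of 14.7% was below the background; by limma-voom with at least 10 reads in every sample, chosen after the data had been seen, 15 of 37 (40.5%) were called, against 31.5% of all genes. Without a minimum fold change, 22 of the 34 had an adjusted p under 0.05, 11 in each direction, against 70.1% of all genes (32.7% higher and 37.4% lower), and 24 had an unadjusted p under 0.05, against 72.8%. Groups did not overlap for 26 of the 34, against 74.5% of all genes. The median log2 fold change was 0.03 over the members and -0.04 over all genes.

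In HepG2, 3 of the 31 members tested were differentially expressed, and all 3 were lower (NR1D1, HNF4G and PPARGC1A). The background was 6.27% of 11762 genes, 3.29% higher and 2.98% lower. By limma 0 members were higher, although 3 were higher and 9 lower at an unadjusted p under 0.05, against 36.6% of all genes in either direction, and limma-voom on reads calculated back called 1 higher, NR2F1. At an adjusted p under 0.05 without a minimum fold change 5 were lower, against 8.43% of all genes lower and 20.0% in either direction. Groups did not overlap for 12 of the 31 members, 9 of them lower, against 40.4% of all genes. The median over the members was -0.17 and that over all genes 0.12.

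The test of the difference between the lines (the interaction of line and resistance) passed both thresholds for 10 of the 29 members tested in both, 5 with a more positive and 5 with a more negative change in Huh7, beside 29.1% of 10688 genes (11.0% and 18.1%). Without a minimum fold change 15 of the 29 had an adjusted p under 0.05, against 56.3% of all genes, and 15 an unadjusted p under 0.05, against 61.3%. NR1D1, NR6A1, ESRRA, NR1I2 and RARA were the 5 with the more positive change in Huh7, and NRIP1, NR2C1, NCOA2, NCOR1 and NR2F1 the 5 with the more negative one. The plot of log2 fold changes by line shows both sets.

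**Figure D2:**
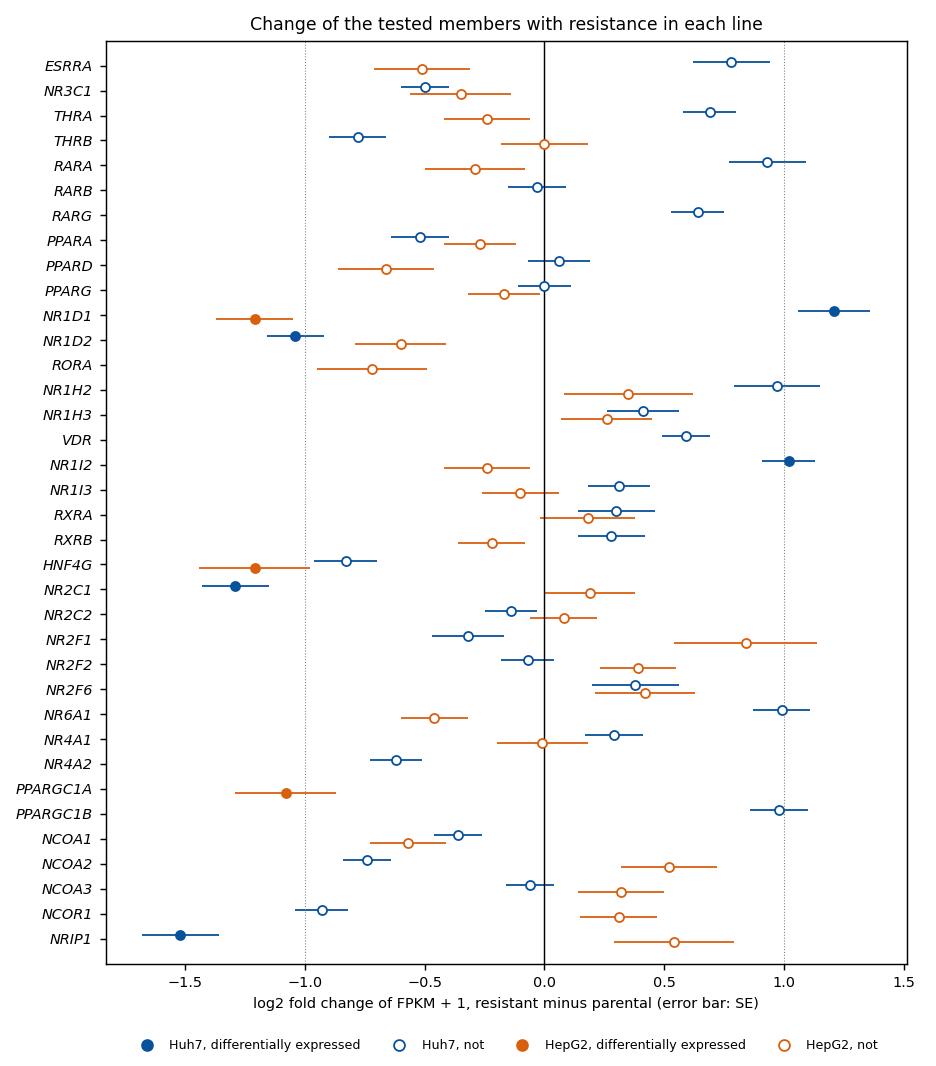
Log2 fold change of FPKM + 1, resistant minus parental (x axis), with its SE for each member tested in Huh7 (blue) or HepG2 (orange); filled points are differentially expressed and dotted lines mark -1 and 1. NR1D1 lies at 1.21 in Huh7 and at -1.21 in HepG2, and NRIP1 at -1.52 and 0.54.

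GC content moved with the Huh7 values. Exon GC content is that of the longest transcript of each gene. Across the 34 members tested in Huh7 it had a Spearman correlation of 0.75 with the log2 fold change. Across all 12545 genes with a GC value the correlation was 0.62, and genes share libraries and depth and are not independent replicates. Members above 0 had a median GC content of 59.2% and those below 0 of 43.2%. In HepG2 the same correlation was 0.16 over the 31 members and 0.04 over all genes. When a smooth trend on GC content was removed from each library, 0 of the 34 members were differentially expressed in Huh7 by limma, against 11.9% of all genes, while 24 had an unadjusted p under 0.05 and the values ran from -0.86 to 0.75. With limma-voom on the reads and no GC correction, 12 members were called in Huh7, against 34.1% of all genes, and with a pseudocount of 0.1 in place of 1 the count was 11, against 33.4%. In HepG2 the 3 calls were made with the trend removed as well, and 8 members passed the interaction test, against 20.5% of all genes, while limma-voom called 11 there, against 37.0%. Signs in Huh7 turned with the trend removed for NR3C1, RARB, PPARD, NR1H3, NR1I3, RXRA, RXRB, HNF4G, NR2C2, NR4A1 and NCOA3. In the text, Huh7 values of single genes from the main fit are therefore given with the value after GC removal. The limma-voom values have no such counterpart, and the part of GC content in the differences was not tested.

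**Figure D3:**
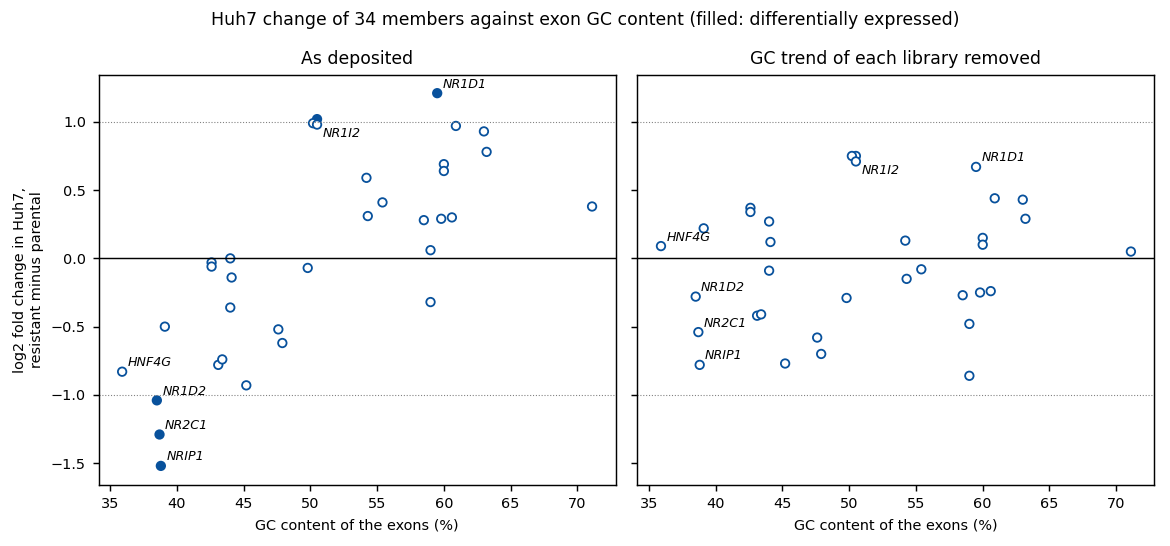
Log2 fold change in Huh7, resistant minus parental (y axis), of the 34 tested members against the GC content of their longest transcript in percent (x axis). Values are as deposited (left) and with the GC trend of each library removed (right). Filled points are differentially expressed: 5 on the left and 0 on the right, where all members lie between -0.86 and 0.75.

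NR1D1 and NR1D2 encode REV-ERBα and REV-ERBβ, heme-binding repressors that compete with the ROR activators for the same sites and hold down BMAL1, a core clock gene. NR1D1 (chr17:40092787-40100725, minus strand, GRCh38) stood at 5.23, 3.96 and 3.82 FPKM in parental and at 12.7, 9.18 and 12.1 FPKM in resistant Huh7. In HepG2 it stood at 32.0, 30.7 and 28.9 FPKM in parental and at 10.7, 15.4 and 12.2 FPKM in resistant cells. Parental and resistant samples stood apart in both lines, and the means, 4.34 and 30.5 FPKM in the parental lines, were 11.3 ± 1.89 and 12.7 ± 2.41 FPKM (SD, n = 3) in the resistant ones. In bulk RNA, fewer cells that express a gene and less of its RNA per cell cannot be told apart. The rise in Huh7 was 2.61-fold (log2 fold change 1.21, SE 0.15, adjusted p = 0.000221 by limma) and the fall in HepG2 2.40-fold (-1.21, SE 0.16, adjusted p = 0.00205). Between the lines the change differed by 2.42 (SE 0.22, adjusted p = 7.54e-06), the largest among the members tested in both. With the GC trend removed it was 2.02, from 0.67 in Huh7 and -1.36 in HepG2, and the calls in both lines held in 6 of 6 fits that left out 1 sample. NR1D1 and THRA overlap tail to tail on opposite strands by 263 exon bases, which is 9.5% of the exons of NR1D1 and 3.8% of those of THRA, and reads there cannot be told apart where counting did not use strand, which the sources do not state.

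NR1D2 (chr3:23945260-23980618, plus strand) stood at 9.53, 10.2 and 12.1 FPKM in parental and at 4.71, 4.98 and 4.18 FPKM in resistant Huh7. In HepG2 it was at 9.08, 5.62 and 7.88 FPKM and then at 5.40, 4.07 and 4.26 FPKM. Parental and resistant samples did not overlap in either line. The fall in Huh7 was 2.29-fold (-1.04, SE 0.12, adjusted p = 0.000145), just past the fold minimum: it was -0.95 without Huh7 parental replicate 3, -0.98 without resistant replicate 3 and -0.28 with the GC trend removed. In HepG2 the log2 fold change was -0.60 (SE 0.19, adjusted p = 0.0581). The REV-ERB pair thus moved in opposite directions in Huh7 as deposited, while neither value passed the fold minimum with the GC trend removed.

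RORA, the ROR activator on the other side of this switch, was at 0.991, 1.32 and 1.31 FPKM in parental and at 0.198, 0.198 and 0.130 FPKM in resistant Huh7. These values rest on 303 to 380 and on 42 to 65 reads. RORA missed the filter on low values in Huh7 and was not tested by the main fit; the means differed 6.90-fold, and limma-voom on genes with at least 10 reads in every sample, chosen after the data had been seen, gave -2.85 (adjusted p = 6.26e-13). In HepG2 it stood at 3.24, 1.52 and 1.5 FPKM in parental and 1.05, 0.684 and 0.743 FPKM in resistant cells, with no overlap, a log2 fold change of -0.72 (SE 0.23, adjusted p = 0.0582) and -1.24 by limma-voom (adjusted p = 0.00649). Its exons have a GC content of 35.8%, the lowest of the members.

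Of the other clock genes, 14 were tested in Huh7, where 2 were higher and 3 lower among the differentially expressed, with a median of 0.01 against -0.04 over all genes. Over all genes tested, 22.6% were differentially expressed in Huh7 and 6.27% in HepG2. PER2 and CRY2, which repress CLOCK and BMAL1, rose (1.64 and 1.25), while CLOCK fell (-1.29), as did FBXL21 (-1.77), an F-box protein that binds cryptochromes. With the GC trend removed, PER2 (1.26) and FBXL21 (-1.22) were past the thresholds and CLOCK (-0.44) and CRY2 (0.73) were not. FBXL21 passed the filter on low values only through its parental Huh7 samples, so only a fall could be tested. In HepG2, 1 of 15 was differentially expressed: NFIL3, a repressor that acts at D-box elements, fell (-1.51), and the median of the list was -0.09 against 0.12.

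PPARGC1A encodes PGC-1α, the coactivator that drives mitochondrial biogenesis and, in hepatocytes, gluconeogenesis. Parental HepG2 samples held 15.3, 9.45 and 10.5 FPKM and resistant ones 6.29, 4.04 and 4.69 FPKM, without overlap. The fall was 2.35-fold (-1.08, SE 0.21, adjusted p = 0.0111), -1.19 with the GC trend removed, and short of the fold minimum without HepG2 parental replicate 1 (-0.88) or resistant replicate 2 (-0.96). In Huh7 the gene was far lower at the start, at 0.723, 0.923 and 0.843 FPKM, and it stood at 0.116, 0.0906 and 0.0774 FPKM in resistant cells, on 141 to 169 and 16 to 24 reads. It was below the filter there; the means differed 8.75-fold and limma-voom with at least 10 reads gave -3.17 (adjusted p = 3.3e-12). Within each line PPARGC1A was thus lower in every resistant than in every parental sample, and the difference between the lines could not be tested in the main fit. The exon GC content of PPARGC1A is 40.5%, and the part of GC content in its Huh7 values was not tested.

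PPARGC1B encodes PGC-1β, the closest relative of PGC-1α, and in Huh7 it moved the other way. It stood at 2.06, 1.67 and 1.45 FPKM in parental and at 4.45, 4.41 and 4.24 FPKM in resistant Huh7, a 2.53-fold difference in means. The log2 fold change of 0.98 (SE 0.12, adjusted p = 0.000158) was just short of the fold minimum, and it was 0.71 with the GC trend removed and 1.28 by limma-voom. In HepG2, PPARGC1B was at 0.177, 0.297 and 0.261 FPKM in parental and 0.421, 0.314 and 0.388 FPKM in resistant cells, too low to test but without overlap.

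ESRRA encodes ERRα, an orphan receptor that with PGC-1 coactivators controls genes of oxidative metabolism. In Huh7 it stood at 3.77, 2.39 and 2.49 FPKM in parental and 6.35, 4.88 and 5.68 FPKM in resistant samples, without overlap (0.78, SE 0.16, adjusted p = 0.00233; 0.29 with the GC trend removed). HepG2 samples overlapped, with 7.72, 10.8 and 9.21 FPKM in parental and 4.85, 7.96 and 5.93 FPKM in resistant cells (-0.51, SE 0.20, adjusted p = 0.098). The interaction was 1.30 (SE 0.26, adjusted p = 0.00133), and 1.06 with the GC trend removed. ESRRA shares 284 exon bases, 9.4% of its exons, with TRMT112 on the other strand.

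Of 16 further PGC-1 and ERR targets tested in Huh7, 3 were differentially expressed: COX6A1 (1.22) and ATP5F1B (1.06), which encode subunits of cytochrome c oxidase and ATP synthase, rose, and GABPA (-1.13), a transcription factor of respiratory chain genes, fell. The median was 0.14. After removal of the GC trend COX6A1 was at 1.79, ATP5F1B (0.74) and GABPA (-0.24) were short of the fold minimum, and the median was -0.08. In HepG2, 1 of 17 was differentially expressed, SOD2 (-2.41), the mitochondrial superoxide dismutase, and the median was 0.15. The shares of all genes called were 22.6% in Huh7 and 6.27% in HepG2, with medians of -0.04 and 0.12.

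NRIP1 encodes RIP140, a corepressor of many nuclear receptors that restrains oxidative metabolism. Parental Huh7 held 19.4, 21.5 and 27.3 FPKM and resistant Huh7 8.50, 7.21 and 6.03 FPKM, well apart. This 3.14-fold fall was the largest among the tested members in Huh7 (-1.52, SE 0.16, adjusted p = 9.51e-05), it held in 6 of 6 fits that left out 1 sample, and with the GC trend removed the value was -0.78. In HepG2 the samples overlapped, at 20.3, 16.9 and 31.2 FPKM in parental and 43.3, 27.4 and 29.3 FPKM in resistant cells (0.54, SE 0.25, adjusted p = 0.158). Compared with HepG2, the change was different by -2.07 (SE 0.32, adjusted p = 0.000265), and -1.23 with the GC trend removed.

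NCOR1 is the corepressor that carries HDAC3 to unliganded receptors. It stood at 25.9, 27.2 and 26.1 FPKM in parental and 12.5, 15.1 and 12.9 FPKM in resistant Huh7 (-0.93, SE 0.11, adjusted p = 0.000136; -0.77 with the GC trend removed). In HepG2 it was at 16.4, 13.5 and 18.5 FPKM and then at 22.2, 18.6 and 19.6 FPKM, also without overlap but in the other direction (0.31, SE 0.16, adjusted p = 0.191). The difference between the lines passed the thresholds (-1.23, SE 0.18, adjusted p = 0.000159), and it was -1.06 with the GC trend removed.

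The p160 coactivators NCOA1, NCOA2 and NCOA3 (SRC-1, SRC-2 and SRC-3) bind liganded receptors and recruit histone acetyltransferases. NCOA2 had 33.8, 36.8 and 37.3 FPKM in parental and 20.1, 22.5 and 20.9 FPKM in resistant Huh7 (-0.74, SE 0.10, adjusted p = 0.000285; -0.41 with the GC trend removed). In HepG2 it had 8.90, 6.15 and 10.4 FPKM and then 14.6, 10.7 and 12 FPKM (0.52, SE 0.20, adjusted p = 0.102). Groups did not overlap in either line, and the difference between the lines was -1.26 (SE 0.23, adjusted p = 0.000677), or -0.88 with the GC trend removed, which is short of the fold minimum. NCOA1 moved the same way in both lines: 6.84, 7.32 and 7.08 FPKM against 4.98, 5.68 and 5.20 FPKM in Huh7 (-0.36, SE 0.10, adjusted p = 0.0112), and 7.13, 5.49 and 8.06 FPKM against 4.33, 4.2 and 4.30 FPKM in HepG2 (-0.57, SE 0.16, adjusted p = 0.0391). Neither fall reached the fold minimum, and in Huh7 the value was -0.09 with the GC trend removed. NCOA3 had log2 fold changes of -0.06 in Huh7 (0.34 with the GC trend removed) and 0.32 in HepG2, with overlapping groups.

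Among 22 further coregulators tested in Huh7, 2 were higher and 4 lower at both thresholds, with a median that rounds to 0, and TBL1XR1 (-1.54), a subunit of the NCOR1 complex, had the largest change. PRMT1 (1.22), an arginine methyltransferase that acts as a coactivator, rose, and NCOA7 (-1.21) and LCOR (-1.12), a ligand-dependent corepressor, fell. With the GC trend removed TBL1XR1 was at -0.57, PRMT1 at 0.7, NCOA7 at -0.68 and LCOR at -0.76. By limma with the GC trend removed 0 of the 22 were differentially expressed, with 15 at an unadjusted p under 0.05 and 5 called by limma-voom without that correction. In HepG2, 1 of 22 was differentially expressed, NCOA5 (1.09), and the median was 0.01. Background shares were 22.6% in Huh7, 11.9% there with the GC trend removed, and 6.27% in HepG2. Background medians were -0.04 in Huh7 and 0.12 in HepG2.

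NR6A1 encodes GCNF, an orphan receptor known for repressing pluripotency genes in development, and it was the most abundant receptor of the list in resistant Huh7. It stood at 34.3, 34 and 26.5 FPKM in parental and 66.0, 62.6 and 61.8 FPKM in resistant Huh7 (2.01-fold, log2 fold change 0.99, SE 0.12, adjusted p = 0.000199; 0.75 with the GC trend removed). In HepG2 it stood at 55.8, 62.2 and 50.3 FPKM and then at 37.4, 40.5 and 43.5 FPKM (-0.46, SE 0.14, adjusted p = 0.0524). Neither line showed overlap, and the signs were opposite. The interaction came to 1.45 (SE 0.18, adjusted p = 5.62e-05), and it was 1.23 with the GC trend removed.

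NR2C1 encodes TR2, a repressing orphan receptor that pairs with TR4. Huh7 samples stood at 9.55, 11.1 and 13.2 FPKM in parental and 3.46, 4.40 and 4.21 FPKM in resistant cells, well apart, a 2.81-fold fall (-1.29, SE 0.14, adjusted p = 0.000111). In HepG2 they overlapped, at 7.07, 5.60 and 7.98 FPKM and at 10.1, 6.83 and 7.11 FPKM (0.19, SE 0.19, adjusted p = 0.505). The difference between the lines was -1.47 (SE 0.24, adjusted p = 0.000334); with the GC trend removed it was -0.63 and the Huh7 value -0.54, both short of the fold minimum. Its partner NR2C2 (TR4) had -0.14 in Huh7 (0.12 with the GC trend removed) and 0.08 in HepG2.

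HNF4G encodes HNF4γ, a relative of the hepatocyte master regulator HNF4A. In HepG2 it fell 2.75-fold, from 8.19, 6.26 and 11.1 FPKM to 4.13, 2.49 and 2.68 FPKM, with no overlap (-1.21, SE 0.23, adjusted p = 0.00941), and -1.29 with the GC trend removed. Huh7 samples were at 7.77, 9.55 and 10.5 FPKM in parental and 4.54, 5.28 and 4.44 FPKM in resistant cells, also apart (-0.83, SE 0.13, adjusted p = 0.000608), but with the GC trend removed this value became 0.09. The interaction, 0.38 as deposited (adjusted p = 0.26), was 1.37 with the GC trend removed (adjusted p = 1.33e-05 by limma) and then past both thresholds. The exon GC content of HNF4G, 35.9%, was the lowest of the members tested in Huh7.

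NR2F1 encodes COUP-TFI, which often represses hepatocyte genes. In Huh7 it was at 15.4, 12.8 and 12.5 FPKM in parental and at 9.15, 9.94 and 13.1 FPKM in resistant samples (-0.32, SE 0.15, adjusted p = 0.0806). In HepG2 it was at 2.42, 2.15 and 5.20 FPKM and then at 4.15, 7.63 and 7.58 FPKM (0.84, SE 0.30, adjusted p = 0.0832). Groups overlapped in both lines, and the interaction of -1.16 (SE 0.37, adjusted p = 0.0175) was -0.98 without HepG2 parental replicate 2. With the GC trend removed the Huh7 value was -0.86 (adjusted p = 0.000769 by limma) and the interaction -1.57. Its relatives NR2F2 (COUP-TFII) and NR2F6 were between -0.07 and 0.42 in the 2 lines and were not differentially expressed, and in Huh7 they were at -0.29 and 0.05 with the GC trend removed.

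RARA, the retinoic acid receptor α, stood at 4.71, 4.05 and 3.11 FPKM in parental and 8.53, 6.86 and 9.92 FPKM in resistant Huh7, without overlap (2.13-fold, log2 fold change 0.93, SE 0.16, adjusted p = 0.00114; 0.43 with the GC trend removed). HepG2 samples overlapped, at 8.85, 9.98 and 10.3 FPKM and at 5.32, 9.79 and 8.83 FPKM (-0.29, SE 0.21, adjusted p = 0.351). The difference between the lines was 1.22 (SE 0.28, adjusted p = 0.00303), and short of the fold minimum without HepG2 resistant replicate 1 (0.98) or with the GC trend removed (0.97). RARG was the low member of the family, at 0.508 ± 0.0403 FPKM in parental and 1.36 ± 0.165 in resistant Huh7 (0.64, adjusted p = 0.000761; 0.10 with the GC trend removed). RARG passed the filter on low values only through its resistant Huh7 samples, so only a rise could be tested. RARB, far higher in Huh7 than in HepG2, had -0.03 with resistance in Huh7 (0.37 with the GC trend removed). The thyroid hormone receptors diverged in Huh7, THRA at 0.69 (adjusted p = 0.000586) and THRB at -0.78 (adjusted p = 0.000508), both short of the fold minimum and at 0.15 and -0.42 with the GC trend removed.

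Of 10 genes of retinoic acid response and metabolism tested in Huh7, 3 were differentially expressed, all higher: RARRES2 (2.08), the chemokine-like chemerin, RBP4 (1.24), the plasma retinol carrier, and DHRS3 (1.18), a retinaldehyde reductase. The median was 0.41. After GC removal RARRES2 was at 1.63, RBP4 (0.71) and DHRS3 (0.68) were short of the fold minimum, and the median was 0.21. DHRS3 was also the 1 of 7 called in HepG2, where it fell (-1.12) and the median was -0.38. Thyroid hormone targets had a median of 0.24 over the 8 tested in Huh7, and in HepG2 1 of 5 was called, SERPINA7 (1.56), the thyroxine-binding globulin, with a median of 0.10. For both lists the background was 22.6% of genes called in Huh7 and 6.27% in HepG2, with medians of -0.04 and 0.12.

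NR1I2 encodes PXR, the receptor through which hepatocytes sense drugs and induce drug-metabolizing enzymes and transporters. Parental Huh7 samples stood at 0.59, 0.75 and 0.748 FPKM and resistant ones at 2.32, 2.72 and 2.30 FPKM, on 57 to 68 and 235 to 282 reads. Groups were far apart, with a 3.51-fold rise in the mean (1.02, SE 0.11, adjusted p = 0.000103), and 1.75 by limma-voom, 0.75 with the GC trend removed and 0.98 without Huh7 parental replicate 1. Fits that left out a resistant Huh7 sample could not test NR1I2, which then missed the filter. It passed the filter in Huh7 only through the resistant samples, so only a rise could be tested there. HepG2 samples overlapped, at 2.53, 3.64 and 4.25 FPKM and at 2.98, 2.67 and 2.60 FPKM (-0.24, SE 0.18, adjusted p = 0.364). The difference between the lines was 1.26 (SE 0.20, adjusted p = 0.000297), and 1.02 with the GC trend removed. NR1I3, the related CAR receptor, had 0.31 in Huh7 (-0.15 with the GC trend removed) and -0.10 in HepG2, and 20.0% of its exon bases overlap TOMM40L on the other strand.

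PXR and CAR targets numbered 10 tested in each line, where 22.6% of all genes were called in Huh7 and 6.27% in HepG2 (medians -0.04 and 0.12). In Huh7, 3 rose: GSTA1 (1.15), a glutathione transferase, POR (1.11), the electron donor of cytochromes P450, and ALAS1 (1.11), the first enzyme of heme synthesis, and the median was 0.68. With the GC trend removed GSTA1 was at 1.52, while POR (0.59) and ALAS1 (0.76) were short of the fold minimum. In HepG2, 2 rose and 3 fell, with a median of -0.20. CYP3A5 (1.90) rose, while CYP2B6 (-1.74), GSTA1 (-1.53) and ABCC3 (-1.32), an efflux transporter, fell. GSTA1 thus moved in opposite directions in the 2 lines, without a difference test for single list genes being given here.

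PPARA, the fatty acid sensor PPARα, stood at 2.28, 2.43 and 1.91 FPKM in parental and 1.16, 1.41 and 1.13 FPKM in resistant Huh7, without overlap (-0.52, SE 0.12, adjusted p = 0.00372; -0.58 with the GC trend removed). In HepG2 it was at 3.65, 2.71 and 2.53 FPKM and then at 2.24, 2.28 and 2.27 FPKM, also without overlap (-0.27, SE 0.15, adjusted p = 0.24). PPARD fell in HepG2 below the fold minimum (-0.66, adjusted p = 0.0484) and was at 0.06 in Huh7 (-0.48 with the GC trend removed), and PPARG had 0.00 in Huh7 (0.27 with the trend removed) and -0.17 in HepG2. Of 15 PPARα targets tested in Huh7, 3 were differentially expressed, all higher, among them TXNIP (2.28), a regulator of glucose uptake, and CIDEC (1.34), a lipid droplet protein, which were at 2.56 and 0.81 with the GC trend removed. In HepG2, 3 of 14 were, all lower: TXNIP (-2.01), PLIN2 (-1.74), a lipid droplet coat protein, and ACSL1 (-1.36), an acyl-CoA synthetase. The medians were 0.50 and -0.23, against -0.04 and 0.12 over all genes, of which 22.6% were called in Huh7 and 6.27% in HepG2.

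The liver X receptors sense oxysterols. NR1H2 (LXRβ) had 3.89 ± 0.930 FPKM in parental and 8.61 ± 1.93 in resistant Huh7 (0.97, SE 0.18, adjusted p = 0.00147; 0.44 with the GC trend removed) and 0.35 in HepG2 (adjusted p = 0.384). NR1H3 (LXRα) had 0.41 in Huh7 (adjusted p = 0.0373), which was -0.08 (adjusted p = 0.514 by limma) with the GC trend removed, and 0.26 in HepG2. Of 9 LXR targets tested in Huh7, PLTP (2.49), the phospholipid transfer protein, rose and ABCA1 (-1.18), the cholesterol exporter, fell, with a median of 0.36, and they were at 1.95 and -1.05 with the GC trend removed. Of 12 tested in HepG2, FASN (1.30), fatty acid synthase, rose and SMPDL3A (-1.41) fell (0.99 and -1.52 with the GC trend removed), with a median of 0.31. All genes had medians of -0.04 in Huh7 and 0.12 in HepG2, and 22.6% and 6.27% of them were called. VDR, the vitamin D receptor, was at 0.576 ± 0.0380 FPKM in parental and 1.37 ± 0.132 in resistant Huh7 (0.59, adjusted p = 0.00107; 0.13 with the GC trend removed) and under 0.2 FPKM in HepG2. CYP24A1, the vitamin D hydroxylase, was the 1 of 3 vitamin D targets called in Huh7 (1.17, or 1.25 with the GC trend removed, median 0.86) and the only one tested in HepG2 (-2.21). VDR and CYP24A1 passed the filter in Huh7 only through the resistant samples. For these genes only a rise could be tested there.

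The steroid receptor list was represented mainly by NR3C1, the glucocorticoid receptor, at 10.4 ± 0.622 FPKM in parental and 7.08 ± 0.407 in resistant Huh7 (-0.50, adjusted p = 0.0023; 0.22 with the GC trend removed) and at -0.35 in HepG2 (adjusted p = 0.261). Glucocorticoid receptor targets had 1 of 10 called in Huh7, PIK3R1 (-1.23, and -0.62 with the GC trend removed), with a median of 0.24, and 2 of 10 in HepG2, ERRFI1 (-2.50), a feedback inhibitor of the EGF receptor, and DUSP1 (-1.45), a MAP kinase phosphatase, with a median of -0.01. The remaining steroid receptors had few reads: ESR1 had 28 to 30 reads in parental and 7 to 16 in resistant Huh7, ESR2 35 to 57 and 4 to 10, ESRRG 41 to 50 and 6 to 9, and PGR 9 to 16 and 0 to 1. All 4 were lower in every resistant than in every parental Huh7 sample and none was tested in the main fit. Among all genes tested in Huh7, groups did not overlap for 74.5%. Estrogen receptor targets had 2 of 7 called in Huh7, XBP1 (1.12), a transcription factor of the unfolded protein response, and CTSD (1.09), a lysosomal protease, both higher and at 1.63 and 0.60 with the GC trend removed, with a median of 0.88, and 1 of 7 in HepG2, MYC (-1.66), with a median of -0.44. Both target lists stand beside 22.6% of all genes called in Huh7 and 6.27% in HepG2, with medians of -0.04 and 0.12.

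Among the NR4A receptors, which are induced rapidly by stimuli and act without a known ligand, NR4A2 had 6.24 ± 0.465 FPKM in parental and 3.73 ± 0.440 in resistant Huh7 (-0.62, adjusted p = 0.00151; -0.70 with the GC trend removed). NR4A1 was near 1 FPKM in all groups, at 0.29 in Huh7 (-0.25 with the GC trend removed) and -0.01 in HepG2. NR4A3 was counted with 41 to 50 reads in parental and 17 to 26 in resistant Huh7, and limma-voom with at least 10 reads gave -1.32 (adjusted p = 0.00012). The obligate partners of many receptors above, RXRA and RXRB, had 0.30 and 0.28 in Huh7 and 0.18 and -0.22 in HepG2, and neither passed a threshold in either line. Once the GC trend was removed the Huh7 values turned to -0.24 (adjusted p = 0.0469) and -0.27 (adjusted p = 0.045) by limma. Of other nuclear receptors outside the list, 4 were tested in Huh7 and limma called 0, with 2 at an unadjusted p under 0.05 and 1 called by limma-voom. In HepG2, 1 of 6 was called: NR0B2, the corepressor SHP, fell (-1.01, adjusted p = 0.00786). The medians were 0.01 and 0.09, against -0.04 and 0.12 over all genes, of which 22.6% were called in Huh7 and 6.27% in HepG2.

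**Figure D4:**
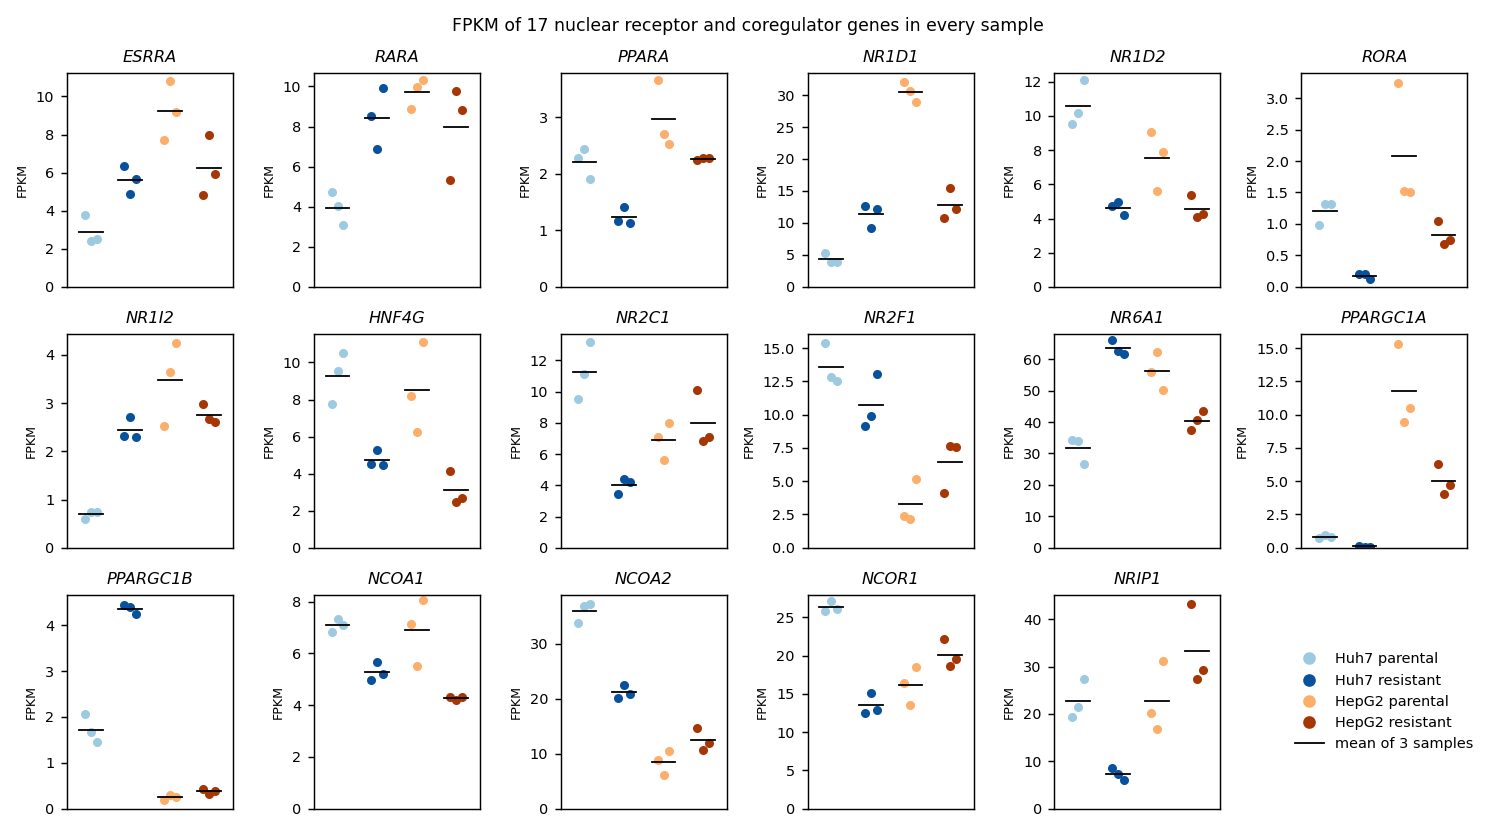
FPKM (y axis, from 0) of 17 members in each of the 3 samples of Huh7 parental, Huh7 resistant, HepG2 parental and HepG2 resistant cells, with the mean of each group as a bar. NR1D1 and NR6A1 stand higher in every resistant than in every parental Huh7 sample and lower in HepG2, NRIP1 and NR2C1 are lower in resistant Huh7 and overlap in HepG2, and PPARGC1A is lower in resistant cells of both lines.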

How the data were processed

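The study sequenced RNA libraries made with the NEBNext Ultra kit from 12 samples, 3 per group. RNA was extracted with RNeasy per the labels and with TRIzol per the study's methods. The authors deposited 1 table per sample with expression normalised to exon length and depth. The unit is not stated, and the deposited values were read as FPKM because most of them gave whole reads. The depth of each library was fitted on 6896 single-exon genes. Over all genes with an exon length, 96.3 to 96.5% of the lower values then lay within 0.05 of a whole read. The submitters' processing notes name bcl2fastq and GRCh38; the aligner and counter are not given in the sources used here.

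Log2(FPKM + 1) was tested with limma 3.58.1 (R 4.3.3, trended eBayes, two-sided, Benjamini-Hochberg over all tested genes) for genes at 1 FPKM or more in at least 3 samples of the fit. Differentially expressed means an adjusted p under 0.05 and a log2 fold change beyond 1. A gene under 1 FPKM in every sample of a group was tested only if the other group was high. Only a difference with that other group higher could then be tested. This held in Huh7 for NR1I2, RARG, VDR, CYP24A1 and FBXL21. Between parental lines it held for RARB, NR4A2, PPARGC1A, PPARGC1B and NR1I2. GC trends were removed per library by lowess (span 0.3) on exon GC content, that of the longest GENCODE 29 transcript of each gene. Members described one by one were differentially expressed in a line or in the interaction, or did not overlap in either line. List genes named were the up to 4 with the largest change among those differentially expressed, and CRY2 was named in addition after its value was seen; some list genes are not reported here. The members, taken by name, and the lists were chosen with earlier results of these data known. In simulated data 200 genes changed by 2 on the log2 scale were recovered at 98.5% in Huh7, 95.5% in HepG2, 95.5% in the interaction and 98% between parental lines. Only genes with a mean log2(FPKM + 1) above 3 were changed, and no GC trend was simulated. Recovery of smaller changes, of lower genes or under a GC trend was not tested. The main fits did not treat replicate numbers in the labels as pairs, and the labels do not say whether they mark pairs.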

Additional observations from a re-analysis of the deposited data

Results flagged for a closer look

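The change with resistance differed between Huh7 and HepG2 by the interaction test for 10 of 29 members, beside 29.1% of 10688 genes. Values are given as the Huh7 minus the HepG2 log2 fold change. The difference was positive for NR1D1 (2.42), NR6A1 (1.45), ESRRA (1.30), NR1I2 (1.26) and RARA (1.22). It was negative for NRIP1 (-2.07), NR2C1 (-1.47), NCOA2 (-1.26), NCOR1 (-1.23) and NR2F1 (-1.16). With the GC trend removed RARA, NR2C1 and NCOA2 were short of the fold minimum, and HNF4G passed both thresholds. Single samples were not tested as outliers, because groups held 3 samples.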

How the results depend on the processing

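Of the members tested in Huh7, 5 were differentially expressed in the fit reported, 0 by limma with the GC trend removed (24 at an unadjusted p under 0.05, and 12 by limma-voom without that correction) or with GC removal and the replicate block, 11 with a pseudocount of 0.1 (33.4% of all genes), 12 by limma-voom on reads (34.1% of all genes), 15 by limma-voom with at least 10 reads in every sample (31.5% of all genes; chosen after the data had been seen) and 22 without a fold minimum (70.1% of all genes). Leaving out 1 sample gave 4 to 8. In HepG2 the count of 3 became 5 by either limma-voom fit (10.0% of all genes, or 10.5% with at least 10 reads). It was 5 without a fold minimum (20.0% of all genes), and 2 to 4 with 1 sample left out. Between parental lines 14 became 24 without a fold minimum (65.2% of all genes) and 11 to 12 with 1 sample left out. The interaction count of 10 was 9 to 11 with 1 sample left out and 8 with GC removal (20.5% of all genes). It was 11 by limma-voom (37.0% of all genes) and 15 without a fold minimum (56.3% of all genes). The replicate block alone gave 5, 3, 10 and 14, the same counts as without it. Same-numbered samples had correlations of 0.084, 0.062 and -0.228 in Huh7 and 0.246, 0.437 and -0.011 in HepG2. Differently numbered samples ran from -0.335 to 0.282 in Huh7 and from -0.423 to 0.21 in HepG2, so pairing remains unsettled. 

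Signs turned for values that were not differentially expressed, the following among the members given by sample. With the GC trend removed, with or without the block, the NR1D2 interaction was 0.41, NR1D2 between parental lines -0.16 and HNF4G in Huh7 0.09. Between parental lines HNF4G was -0.59 with GC removal, -0.03 with median-ratio scaling and -0.05 without HepG2 parental replicate 2. NCOA1 was -0.22, -0.11, -0.05 with upper-quartile scaling and -0.09 without HepG2 parental replicate 2. NRIP1 was -0.57, -0.14, -0.08 with upper-quartile scaling, -0.11 without Huh7 parental replicate 3, and -0.03 and -0.16 without HepG2 parental replicates 1 and 2. Over the fits that left out 1 sample the highest values were 0.32 for HNF4G, 0.15 for NCOA1 and 0.27 for NRIP1. The cause was not tested.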
